A study of Mus musculus with 97 samples.

Results

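Dbp, Tef, Hlf, Nfil3, Ciart, Bhlhe40, Bhlhe41 and Rora encode transcription factors that carry the daily rhythm of the molecular clock to other genes or feed back on it. They were taken by gene name from the deposited table of 51368 genes, where each of the 8 names had 1 row, and all 8 passed the filter on low counts in every experiment. The series compares celecoxib and naproxen, both non-steroidal anti-inflammatory drugs, and the amino acid tryptophan in C57BL/6 mice from the Jackson Laboratory, with 59 libraries of whole heart and 38 of jejunum, which was flushed before freezing. Drugs were mixed into the chow for 3 weeks and mice were 11 weeks old at the end. In experiment 1, hearts came from uninjected mice: 5 females on naproxen (1323 ppm) and 5 on plain chow, and 5 males on naproxen (1610 ppm) and 5 on plain chow. In experiment 2, hearts came from females: 8 on naproxen with tryptophan injections, 7 on naproxen with PBS injections, and 8 controls on plain chow with PBS. In experiment 3, hearts came from 8 females injected with tryptophan and 8 injected with PBS, all on plain chow. In experiment 4, jejuna came from females: 8 on celecoxib (550 ppm), 7 on naproxen, 7 on naproxen with tryptophan, 8 on tryptophan and 8 controls, and all of those without tryptophan received PBS. Injections of tryptophan (50 mg/kg) or PBS were given each day at noon of the last week, with the hour of tissue collection not given in the sources used here. Females of all naproxen groups had 1323 ppm. The labels call each experiment a distinct cohort, so hearts and jejuna were not paired.

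The clock of mammalian cells turns on a loop in which the proteins of Clock and Arntl (also called Bmal1) activate genes at E-box motifs and the products of the Per and Cry genes repress them. Dbp, Tef and Hlf belong to the PAR bZIP family and activate genes at D-box motifs, while Nfil3 encodes a bZIP repressor that binds the same motif. Ciart (also called Chrono), Bhlhe40 and Bhlhe41 encode repressors that act on E-box genes, and Rora encodes a nuclear receptor that activates genes at RORE motifs, where Nr1d1 and Nr1d2 repress. In mouse liver, PAR bZIP factors are known for controlling genes of drug and vitamin B6 metabolism.

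The promoters show which of these motifs stand next to the start sites, and those that hold one are printed for 4 of the factors. Any link of these motifs to the levels described further on was not tested. They are RefSeq promoters of build GRCm38.p6, 300 bases long, from 250 bases before to 50 after a start, written 5′ to 3′ on the strand of the gene. Of the 8 factors, 7 had an entry. Capitals mark CACGTG, the E-box searched on both strands, or the motif TAGGTCA of the RORE, which in Nfil3 lies on the opposite strand and so reads TGACCTA.
Ciart, chr3:95882179-95882478, minus strand: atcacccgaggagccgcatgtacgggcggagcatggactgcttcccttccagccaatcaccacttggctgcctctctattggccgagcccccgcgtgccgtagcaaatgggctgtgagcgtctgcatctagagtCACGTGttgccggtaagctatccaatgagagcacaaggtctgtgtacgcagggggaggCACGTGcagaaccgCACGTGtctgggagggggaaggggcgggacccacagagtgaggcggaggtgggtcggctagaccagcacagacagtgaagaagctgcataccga
Tef, chr15:81802423-81802722, plus strand: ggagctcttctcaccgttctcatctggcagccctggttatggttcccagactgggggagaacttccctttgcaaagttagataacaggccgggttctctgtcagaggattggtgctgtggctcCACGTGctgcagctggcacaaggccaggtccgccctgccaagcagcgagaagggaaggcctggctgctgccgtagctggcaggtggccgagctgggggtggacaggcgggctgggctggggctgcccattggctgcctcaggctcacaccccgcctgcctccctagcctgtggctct
Bhlhe41, chr6:145865371-145865670, minus strand: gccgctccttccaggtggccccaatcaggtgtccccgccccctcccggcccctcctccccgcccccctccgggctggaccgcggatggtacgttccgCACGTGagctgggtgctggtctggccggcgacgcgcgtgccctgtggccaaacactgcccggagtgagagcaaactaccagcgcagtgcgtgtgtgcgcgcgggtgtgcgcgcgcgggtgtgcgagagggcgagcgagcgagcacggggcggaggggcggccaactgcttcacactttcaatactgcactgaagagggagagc
Nfil3, chr13:52980990-52981289, minus strand: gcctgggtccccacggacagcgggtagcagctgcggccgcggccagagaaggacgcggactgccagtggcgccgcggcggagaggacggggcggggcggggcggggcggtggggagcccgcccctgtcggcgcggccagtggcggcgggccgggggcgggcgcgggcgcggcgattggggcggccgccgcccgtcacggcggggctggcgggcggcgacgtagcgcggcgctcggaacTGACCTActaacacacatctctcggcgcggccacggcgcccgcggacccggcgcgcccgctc

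Ciart held 3 copies of CACGTG, which began 116, 58 and 44 bases before the start. Tef held 1 copy in the promoter printed, 127 bases before the start, and 1 in that of a second start (chr15:81811164-81811463), 138 bases before it. Bhlhe41 held 1 copy, 153 bases before its start. Among 32851 promoters of the same length, 7.15% held CACGTG at least once and 0.0883% held it 3 times or more. TAGGTCA was found in 2.61% of them, and the D-box TTATGTAA in 0.938% and in none of the promoters of these factors. The promoters of Dbp (chr7:45704997-45705296), Hlf (chr11:90390868-90391167) and Rora (chr9:68653536-68653835) held none of the 3 motifs within this window. Bhlhe40, at chr6:108660629-108666925 on the plus strand of GRCm38 in the GENCODE M21 annotation, had no entry.

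Library totals in units of 1000000 estimated counts ran from 26.3 to 76.4 over the 59 hearts and from 10.1 to 28.5 over the 38 jejuna. The tissues matched their labels: Myh6, the cardiac myosin heavy chain, was at 6146 to 31266 CPM (counts per 1000000 of the scaled library) in hearts and at 0 in 22 of 38 jejuna, with 0.244 CPM at most. Vil1, the villin of enterocyte microvilli, was at 793 to 2711 CPM in jejuna and at no more than 0.546 CPM in hearts. RNA of hearts was selected by its poly-A tail, and that of jejuna, which had lower integrity per the labels, was instead cleared of ribosomal RNA, so levels in the 2 tissues are given side by side without a test.

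All 8 factors were read in every library, and Tef, Dbp and Bhlhe40 had the highest levels per length in both tissues, with the other 5 in a different order (the plot of levels by library shows each value). Per kilobase of exon, control hearts of the females of experiment 1 (n = 5) held most of Tef, at 22.2 ± 3.26 CPM per kb (SD), and Dbp, at 18.4 ± 6.70, and these 2 means lay within 1 SD of each other. Bhlhe40 followed at 13.4 ± 1.40 CPM per kb and Hlf at 8.08 ± 1.83. Bhlhe41 at 4.65 ± 0.692, Ciart at 4.31 ± 0.978 and Rora at 3.52 ± 0.553 CPM per kb lay close together, and the means of neighbours in that order differed by less than the larger of their SDs. Nfil3 was lowest at 2.25 ± 0.231 CPM per kb.

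In control jejuna (n = 8) Dbp stood at 21.03 ± 6.32 CPM per kb, Tef at 15.9 ± 3.81 and Bhlhe40 at 10.4 ± 1.67. Rora at 1.99 ± 0.745, Nfil3 at 1.81 ± 0.504, Hlf at 1.78 ± 0.553 and Ciart at 1.27 ± 0.519 CPM per kb followed, with neighbours again within 1 SD of each other. Bhlhe41 was lowest at 0.428 ± 0.177 CPM per kb. Both are bulk tissues, so fewer cells of a type and less RNA per cell cannot be told apart in any of these levels.

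The factors differed in how far they varied over animals. Over the 38 jejuna the highest library exceeded the lowest 13.1-fold for Ciart (0.600 to 7.87 CPM), 7.00-fold for Dbp (19.1 to 133 CPM), 6.40-fold for Hlf (4.17 to 26.7 CPM), 5.33-fold for Bhlhe41 (1.01 to 5.38 CPM) and 5.17-fold for Nfil3 (1.48 to 7.65 CPM). Tef (3.40-fold) and Bhlhe40 (2.30-fold) varied least there. Within an experiment the hearts spanned from 1.31-fold (Tef, experiment 2) to 3.72-fold (Ciart, experiment 1). With group and, where labelled, dissection batch removed, the residual SD of Ciart stood at the 65.5th, 73.0th, 71.0th and 70.4th percentile of all tested genes in experiments 1 to 4, and that of Tef at the 20.5th, 12.7th, 44.0th and 27.7th. The median residual SD of all genes was itself higher in the jejunum, at 0.34 on the log2 scale, and 0.26, 0.21 and 0.16 in hearts of experiments 1, 2 and 3.

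**Figure D1:**
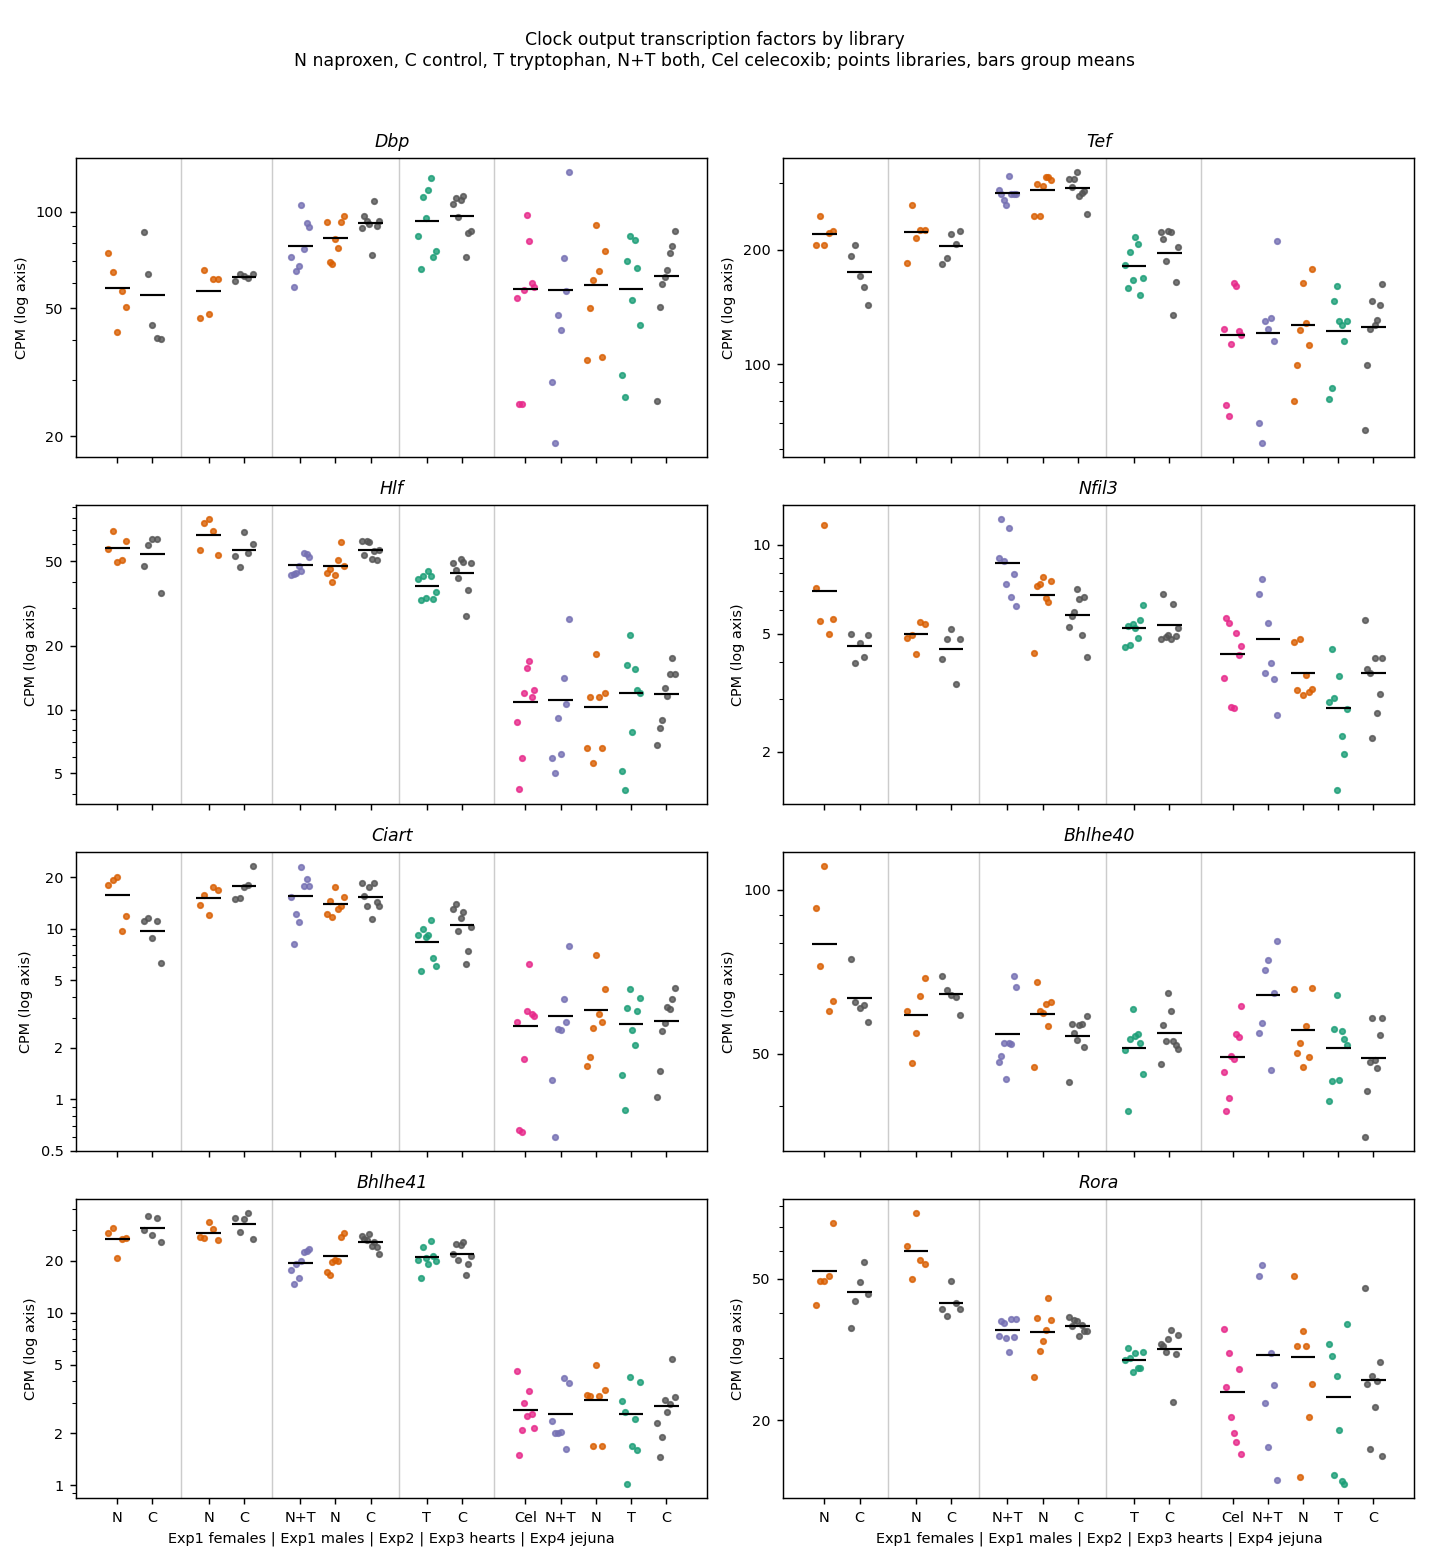
Level of each factor in CPM (vertical log axis) in every library, by group (horizontal axis) within experiments 1 to 4, with naproxen as N, tryptophan as T, both as N+T, celecoxib as Cel and control as C. Points are libraries and bars are group means. Ciart lies between 0.600 and 7.87 CPM in jejuna and between 5.62 and 23.3 CPM in hearts.

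The treatment comparisons asked whether a drug, tryptophan or both moved these factors. None of the 8 passed the test in any of 16 treatment or sex comparisons in edgeR (adjusted p below 0.05 over all genes tested). An unadjusted p below 0.05 was reached by 4 of 8 in hearts of the females of experiment 1, where Ciart, Nfil3, Tef and Bhlhe40 had higher means with naproxen, and by 4 of 8 in hearts of experiment 2, where Nfil3 had a higher mean and Bhlhe41, Hlf and Dbp lower means with naproxen plus tryptophan. The labels give no dissection batch for experiments 1 and 2, so batch could not be held constant there. The part of batch or of the hour of collection in those differences was not tested. In the jejunum, differences from control stayed within 0.41 on the log2 scale in either direction.

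In females of experiment 1, 0 of the 8 were called with naproxen, as were 0.0132% of 15152 genes. At an unadjusted p below 0.05 there were 4 of 8, all 4 higher, against 7.14% of all genes in either direction and 3.12% higher. The median of the 8 was 0.26 on the log2 scale, and that of all genes -0.02. DESeq2 and limma-voom also called 0 of 8.

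Ciart, the E-box repressor with 3 copies of CACGTG in its promoter, was read at 18.1, 19.2, 20.1, 9.65 and 11.9 CPM in naproxen hearts of these females, against 11.0, 11.5, 8.77, 11.1 and 6.28 CPM in control hearts. Of the 5 naproxen hearts, 4 lay above every control, and the groups overlapped through 1 heart. The log2 difference was 0.70 (SE 0.20, adjusted p = 0.41). Nfil3, the D-box repressor, was read at 7.12, 5.53, 11.7, 5.00 and 5.59 CPM in naproxen hearts, against 5.00, 3.97, 4.65, 4.16 and 4.96 CPM in control hearts, a log2 difference of 0.62 (SE 0.19, adjusted p = 0.49). Again 4 of 5 naproxen hearts lay above every control, and without the highest, replicate 3, the difference was 0.37.

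Tef, a D-box activator, was read at 207, 246, 206, 221 and 224 CPM in naproxen hearts, against 193, 207, 171, 159 and 143 CPM in control hearts. The log2 difference was 0.34 (SE 0.10, adjusted p = 0.49), and 3 of 5 naproxen hearts lay above every control. Bhlhe40, an E-box repressor also known to respond to many outside signals, was read at 92.6, 72.5, 111, 59.9 and 62.5 CPM in naproxen hearts, against 74.5, 62.1, 60.8, 61.5 and 57.2 CPM in control hearts (log2 difference 0.33, SE 0.14, adjusted p = 0.66). There 2 naproxen hearts exceeded every control, and without replicate 3 of naproxen the difference was 0.21. Dbp did not follow Tef: it averaged 57.7 ± 12.59 CPM with naproxen and 55.0 ± 20.1 CPM in controls (SD, n = 5 each), a log2 difference of 0.07 (SE 0.19, adjusted p = 0.93). Hlf differed by 0.10 (SE 0.15), Rora by 0.20 (SE 0.14) and Bhlhe41 by -0.22 (SE 0.12) on the log2 scale.

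Of 14 core clock genes, 0 were called in the same females and 6 had an unadjusted p below 0.05, against 7.14% of all genes. Among them were Per2 (0.86 on the log2 scale, SE 0.18, adjusted p = 0.25), Per1 (0.56, SE 0.23) and Cry1 (0.39, SE 0.13) with higher means, and Arntl (-1.46, SE 0.34, adjusted p = 0.25) and Clock (-0.41, SE 0.16) with lower means. Of 5 tested genes known as PAR bZIP targets in mouse liver, 0 were called and 2 had an unadjusted p below 0.05, against the same 7.14%. These were Ppara, the lipid-sensing receptor, at 0.46 (SE 0.13) and Pdxk, pyridoxal kinase, at 0.45 (SE 0.12), both on the log2 scale. Erythroid and neutrophil markers had higher medians with naproxen in these females, and B cell markers a lower one. The summed level of 5 erythroid markers was 1052 to 14208 CPM with a median of 3009 in naproxen hearts, against 845 to 1814 CPM with a median of 1115 in controls. That of 6 neutrophil markers was 2.06 to 269 CPM with a median of 4.51, against 1.78 to 14.5 CPM with a median of 2.21. The median was 3.08 against 5.62 CPM for B cell markers and 1.59 against 1.33 CPM for T and NK cell markers. All of these ranges overlapped. The part of these markers in the differences was not tested.

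Males of experiment 1 gave another set of values. With naproxen 0 of 8 were called, as were 0.0% of all genes, and 1 of 8 had an unadjusted p below 0.05 against 7.68% of all genes. That factor was Rora, at 61.7, 49.9, 76.7, 56.7 and 55.1 CPM in naproxen hearts, against 41.1, 39.3, 49.4, 42.9 and 41.0 CPM in control hearts. The 2 groups did not overlap, and the log2 difference was 0.49 (SE 0.14, adjusted p = 0.41). Ciart was read at 13.8, 15.7, 12.0, 17.5 and 16.8 CPM in naproxen hearts of males, against 14.9, 15.1, 17.4, 18.0 and 23.3 CPM in control hearts, a log2 difference of -0.23 (SE 0.20, adjusted p = 0.81). Hlf differed by 0.23 (SE 0.15), Tef by 0.12 (SE 0.10) and Dbp by -0.15 (SE 0.19). DESeq2 and limma-voom called 0 of 8 here too.

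Naproxen differences of males minus those of females were -0.92 for Ciart (SE 0.28, adjusted p = 0.76) and -0.46 for Bhlhe40 (SE 0.20, adjusted p = 0.76) on the log2 scale. For this difference 0 of 8 were called by edgeR, DESeq2 or limma-voom, as were 0.0% of all genes, and 2 of 8 had an unadjusted p below 0.05 against 5.05% of all genes. Because males had the higher dose, dose and sex cannot be told apart here.

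Sex alone was compared in the controls of experiment 1. There, too, Ciart differed most: all 5 control males (14.9 to 23.3 CPM) lay above all 5 control females (6.28 to 11.5 CPM), and the log2 difference was 0.87 (SE 0.20, adjusted p = 0.14). In edgeR and limma-voom 0 of 8 were called, against 0.152% of all genes in edgeR, and 2 of 8 had an unadjusted p below 0.05 against 8.22% of all genes. DESeq2 called 1 of 8, Ciart, at an adjusted p of 0.0080, with 0.389% of all genes called by that tool.

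In experiment 2, naproxen alone gave 0 of 8 calls by edgeR, DESeq2 or limma-voom, as for 0.0% of all genes, and 2 of 8 had an unadjusted p below 0.05 against 3.63% of all genes. Those were Hlf and Bhlhe41, both with lower means. Hlf was read at 40.1 to 61.4 CPM with a median of 46.0 in naproxen hearts, against 50.4 to 62.3 CPM with a median of 56.2 in control hearts. Here 6 of 7 naproxen hearts lay below every control and 1 lay among the highest, and the log2 difference was -0.25 (SE 0.08, adjusted p = 1.00). Bhlhe41 was read at 16.5 to 28.9 CPM with a median of 20.005 in naproxen hearts, against 22.0 to 28.6 CPM with a median of 26.0 in control hearts (log2 difference -0.26, SE 0.12, adjusted p = 1.00).

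Naproxen plus tryptophan in the same experiment gave the smallest adjusted p of any treatment comparison, 0.075 for Nfil3. Nfil3 was read at 9.02, 12.2, 8.83, 7.34, 11.3, 6.66, 7.98 and 6.23 CPM in the 8 hearts with both treatments, at 4.30, 7.24, 7.37, 7.80, 6.59, 6.41 and 7.52 CPM with naproxen alone, and at 5.26, 5.73, 5.91, 7.08, 6.53, 4.94, 6.65 and 4.18 CPM in controls. Of the hearts with both treatments, 6 of 8 lay above every control, and so did 4 of 7 naproxen hearts, while the groups with both treatments and with naproxen overlapped. The log2 difference was 0.59 (SE 0.14) for both treatments over control, 0.37 (SE 0.15, adjusted p = 0.44) for both over naproxen, and 0.22 (SE 0.15, adjusted p = 1.00) for naproxen over control.

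Bhlhe41 was read at 14.7 to 23.3 CPM with a median of 19.5 with both treatments, against 22.0 to 28.6 CPM with a median of 26.0 in controls, a log2 difference of -0.40 (SE 0.11, adjusted p = 0.11). Hlf was at 42.9 to 54.5 CPM with a median of 46.2, against 50.4 to 62.3 CPM with a median of 56.2 in controls (-0.24, SE 0.08, adjusted p = 0.14). For each of these, 5 of 8 hearts with both treatments lay below every control. Dbp was at 58.2 to 105 CPM with a median of 74.3, against 73.4 to 108 CPM with a median of 92.3 in controls (-0.23, SE 0.11, adjusted p = 0.26). Tef, Ciart, Bhlhe40 and Rora differed by no more than 0.04 in either direction on the log2 scale.

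For this comparison edgeR and limma-voom called 0 of 8, against 0.255% of 16085 genes in edgeR, and 4 of 8 had an unadjusted p below 0.05 against 17.2% of all genes. DESeq2 called 2 of 8, Nfil3 (adjusted p = 0.0068) and Bhlhe41 (adjusted p = 0.029), and it called 2.88% of all genes. Nr1d1, the receptor that represses Nfil3 and Arntl in mouse, differed by -0.48 on the log2 scale (SE 0.12, adjusted p = 0.082). For both treatments over naproxen, 0 of 8 were called by edgeR, DESeq2 or limma-voom, against 0.0933% of all genes in edgeR, and 1 of 8, Nfil3, had an unadjusted p below 0.05 against 9.8% of all genes. Summed neutrophil markers ran from 0.321 to 75.7 CPM with both treatments (median 4.72). They ran from 5.37 to 36.7 CPM with naproxen (median 10.68) and from 0.773 to 9.01 CPM in controls (median 1.58). The highest sum was mostly Ltf, which reached 73.99 CPM in experiment 2, where S100a9, the next highest marker, reached 7.46 CPM. No neutrophil content is read from these sums. The part of these markers in the differences was not tested.

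Naproxen effects of experiment 2, where all mice were injected, were set against those of the uninjected females of experiment 1. All 8 differences (experiment 2 minus experiment 1) were negative, from -0.86 for Ciart (SE 0.24, adjusted p = 0.88) to -0.06, with a median of -0.32 against 0.00 over all genes. By edgeR, DESeq2 and limma-voom 0 of 8 were called, against 0.00618% of all genes in edgeR, and 3 of 8 had an unadjusted p below 0.05 against 3.49% of all genes. The cohort and the injection cannot be told apart.

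Tryptophan alone in experiment 3 gave 0 of 8 calls by edgeR, DESeq2 or limma-voom, as for 0.0% of 15805 genes, and 2 of 8 had an unadjusted p below 0.05 against 2.9% of all genes. The differences were small, and all 8 were negative, from -0.33 to -0.03 on the log2 scale, with a median of -0.09. The 8 signs are not read as independent, since 12 of 28 pairs of factors passed the correlation test below in these hearts, all positive. Ciart differed most, at 5.62 to 11.3 CPM with a median of 9.04 with tryptophan, against 6.19 to 13.96 CPM with a median of 10.9 in controls (log2 difference -0.33, SE 0.11, adjusted p = 1.00). Hlf was at 32.9 to 44.9 CPM with a median of 38.5 with tryptophan, against 27.7 to 51.4 CPM with a median of 47.2 in controls (-0.18, SE 0.08, adjusted p = 1.00). The ranges of the 2 groups overlapped for both.

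In the jejunum the largest differences from control were in the 2 repressors Bhlhe40 and Nfil3. Bhlhe40 was read at 46.7 to 80.6 CPM with a median of 64.6 with naproxen plus tryptophan, against 35.1 to 58.2 CPM with a median of 48.5 in controls. There 4 of 7 treated jejuna lay above every control, and the log2 difference was 0.39 (SE 0.10, adjusted p = 0.35). Nfil3 was read at 1.48 to 4.44 CPM with a median of 2.87 with tryptophan alone, against 2.23 to 5.55 CPM with a median of 3.75 in controls (log2 difference -0.41, SE 0.18, adjusted p = 1.00). With naproxen plus tryptophan it was at 2.65 to 7.65 CPM with a median of 3.97, and with naproxen alone at 3.10 to 4.80 CPM with a median of 3.26. The interaction of the 2 treatments was 0.73 on the log2 scale for Nfil3 (SE 0.25, adjusted p = 1.00).

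Celecoxib differences ran from -0.19 (Dbp) to 0.20 (Nfil3) on the log2 scale. Naproxen differences ran from -0.07 (Hlf) to 0.30 (Ciart, SE 0.27, adjusted p = 0.59). In each of the 7 jejunum comparisons 0 of 8 were called by edgeR, DESeq2 or limma-voom. Of all 17185 genes edgeR called 0.0116% with naproxen and 0.0% in each of the others. At an unadjusted p below 0.05 there were 0 of 8 with celecoxib (4.37% of all genes), 0 with naproxen (16%), 1 with tryptophan (2.65%), 1 with both (5.98%), 0 for both over naproxen (3.66%), 0 for naproxen over celecoxib (18.7%) and 1 for the interaction (3.4%). Summed erythroid markers ran from 4.15 to 126 CPM with both treatments and from 5.40 to 15.7 CPM in controls, and those of T and NK cells from 13.3 to 144 CPM with both treatments (median 29.2), from 16.1 to 58.2 CPM with tryptophan (median 31.9), from 14.3 to 46.9 CPM with naproxen (median 19.9) and from 50.1 to 127 CPM in controls (median 78.1). The part of these markers in the differences of Bhlhe40 and Nfil3 was not tested.

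**Figure D2:**
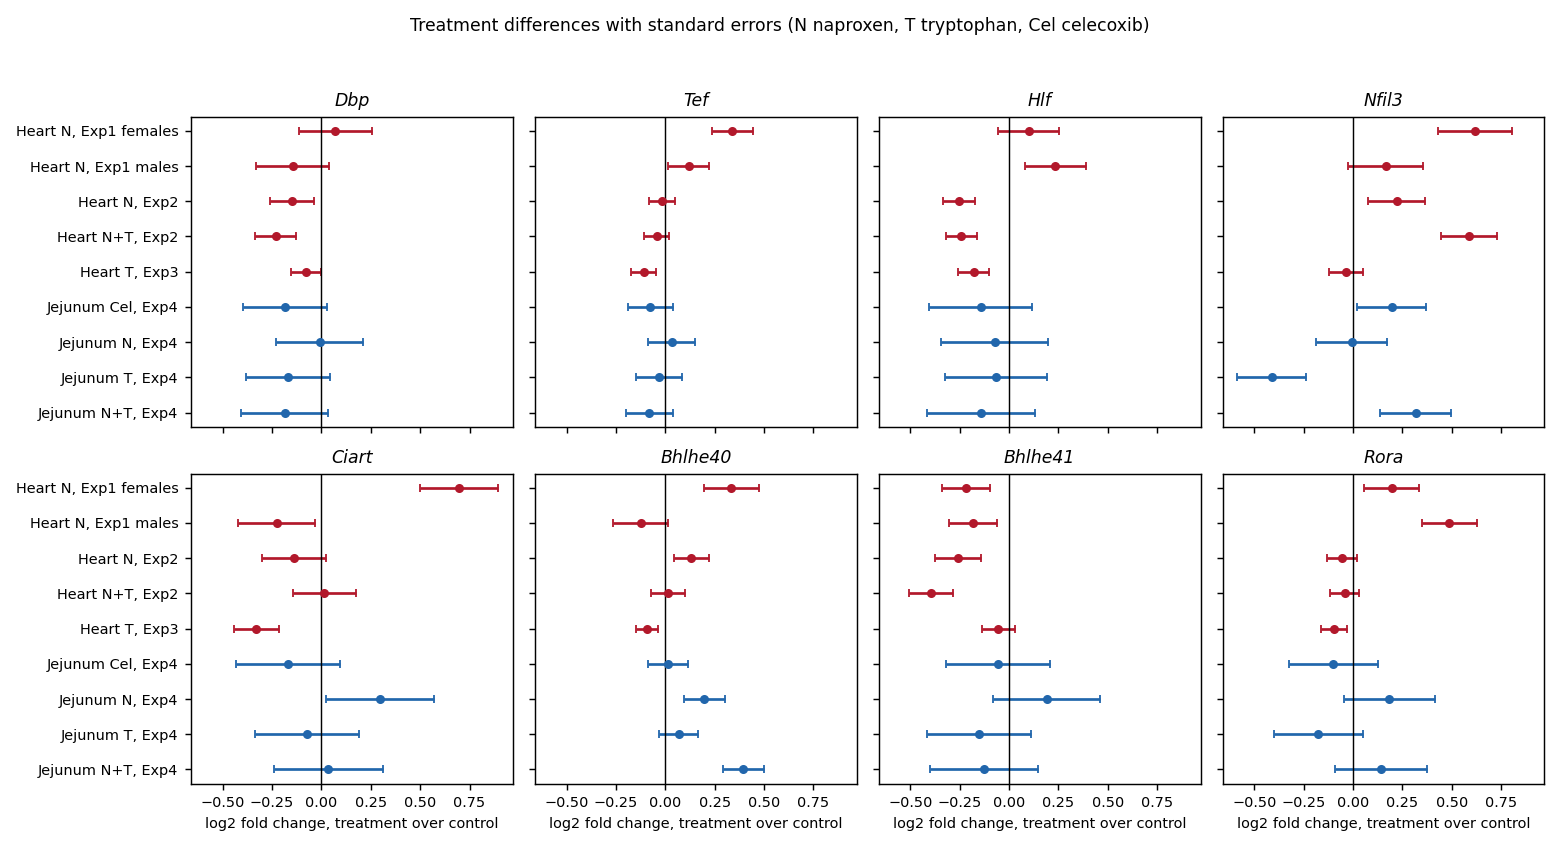
Log2 fold change of each treatment over its control (horizontal axis) with its standard error, for each factor (panels) and comparison (rows), with hearts in red and jejuna in blue. The farthest from 0 is Ciart in females of experiment 1, at 0.70, and none of the differences passed the test in edgeR.

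Dissection batch, which the labels give for experiments 3 and 4, was tested with treatment held constant. In edgeR, which called no factor for a treatment, it gave calls in both tissues. In the jejunum 7 of 8 factors differed over the 4 batches, all but Bhlhe41 (adjusted p = 0.17), against 19.8% of 17185 genes, and 7 of 8 had an unadjusted p below 0.05 against 36.1% of all genes. The adjusted p was 2.8e-05 for Tef, 2.9e-04 for Ciart, 0.0018 for Dbp, 0.0069 for Hlf, 0.0095 for Rora, 0.012 for Nfil3 and 0.049 for Bhlhe40. Bhlhe40 kept its call in 9 of 38 fits with 1 library left out (adjusted p from 0.0215 to 0.118). The batches held 10, 10, 10 and 8 jejuna spread over the 5 groups.

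Dissection batch 2 stood apart, and it was singled out after its values were seen. Tef averaged 145 ± 32.8, 79.7 ± 12.7, 141 ± 17.1 and 125 ± 5.75 CPM in batches 1 to 4 (SD, n = 10, 10, 10 and 8). All 10 jejuna of batch 2 (62.1 to 99.9 CPM) lay below all 28 others (113 CPM and above), and Tef fell by 0.87 in batch 2 against batch 1 on the log2 scale (SE 0.10, adjusted p = 8.2e-06). Ciart averaged 3.93 ± 1.66, 1.13 ± 0.426, 3.56 ± 1.66 and 3.18 ± 0.509 CPM. In batch 2 it ran from 0.600 to 1.77 CPM with a median of 1.17, 9 of 10 lay below all others, and it fell by 1.81 against batch 1 (SE 0.24, adjusted p = 5.5e-05). Tef is an activator at the D-box and Ciart a repressor at the E-box, and both were lower.

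Dbp averaged 70.6 ± 27.99, 31.8 ± 10.6, 66.7 ± 18.3 and 68.0 ± 7.73 CPM in batches 1 to 4, and 8 of 10 jejuna of batch 2 lay below all others. It fell by 1.17 in batch 2 against batch 1 (SE 0.19, adjusted p = 0.0016). Hlf averaged 14.3 ± 6.24, 6.35 ± 2.19, 11.7 ± 4.79 and 12.9 ± 1.61 CPM and also fell by 1.17 (SE 0.24, adjusted p = 0.0046). All 3 PAR bZIP activators were thus lower in batch 2.

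Nfil3, the repressor at the same motif, went the other way. It averaged 3.05 ± 0.702, 5.02 ± 1.503, 3.74 ± 1.05 and 3.43 ± 0.986 CPM in batches 1 to 4 and was higher by 0.69 in batch 2 against batch 1 (SE 0.16, adjusted p = 0.0073), with 4 of 10 above all others. Bhlhe40 fell by 0.31 (SE 0.09, adjusted p = 0.024). Rora averaged 25.025 ± 7.85, 38.02 ± 11.5, 20.1 ± 6.65 and 22.7 ± 7.73 CPM, and its difference of 0.56 between batches 2 and 1 (SE 0.20, adjusted p = 0.063) did not pass the test. Bhlhe41 differed by -0.56 (SE 0.23, adjusted p = 0.10).

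Of the 8 factors, 6 were called between batches 2 and 1, against 11.7% of all genes. The count was 0 of 8 for batches 3 and 1 (5 of 17185 genes called) and for batches 4 and 1 (0 of 17185 genes called). With batch 2 left out, 0 of 8 differed over the other 3 batches, as did 0.0% of 17110 genes. Of 14 core clock genes, 8 were called between batches 2 and 1. Arntl, partner of Clock, was higher by 0.95 (SE 0.16, adjusted p = 0.0024). Per3 (-1.24), Per2 (-0.96), Nr1d1 (-0.73), Nr1d2 (-0.54), Per1 (-0.52) and Cry2 (-0.35) were among those that were lower. Over all 4 batches, 3 of 6 PAR bZIP targets known from mouse liver were called, Ppara, Por and Nr1i3 (adjusted p = 0.0077, 0.012 and 0.025). So were 5 of 6 other clock-controlled genes, against 19.8% of all genes.

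Cell markers also moved with batch 2 of the jejunum. The summed level of 7 enterocyte markers was 8873 to 27097 CPM with a median of 16685 in batch 2, and the medians of batches 1, 3 and 4 were 26095, 25116 and 26858 CPM. The median of 4 smooth muscle markers was 2210 CPM in batch 2 and 1570, 1674 and 1651 CPM in batches 1, 3 and 4. Neither the part of these markers nor that of the hour of collection was tested.

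**Figure D3:**
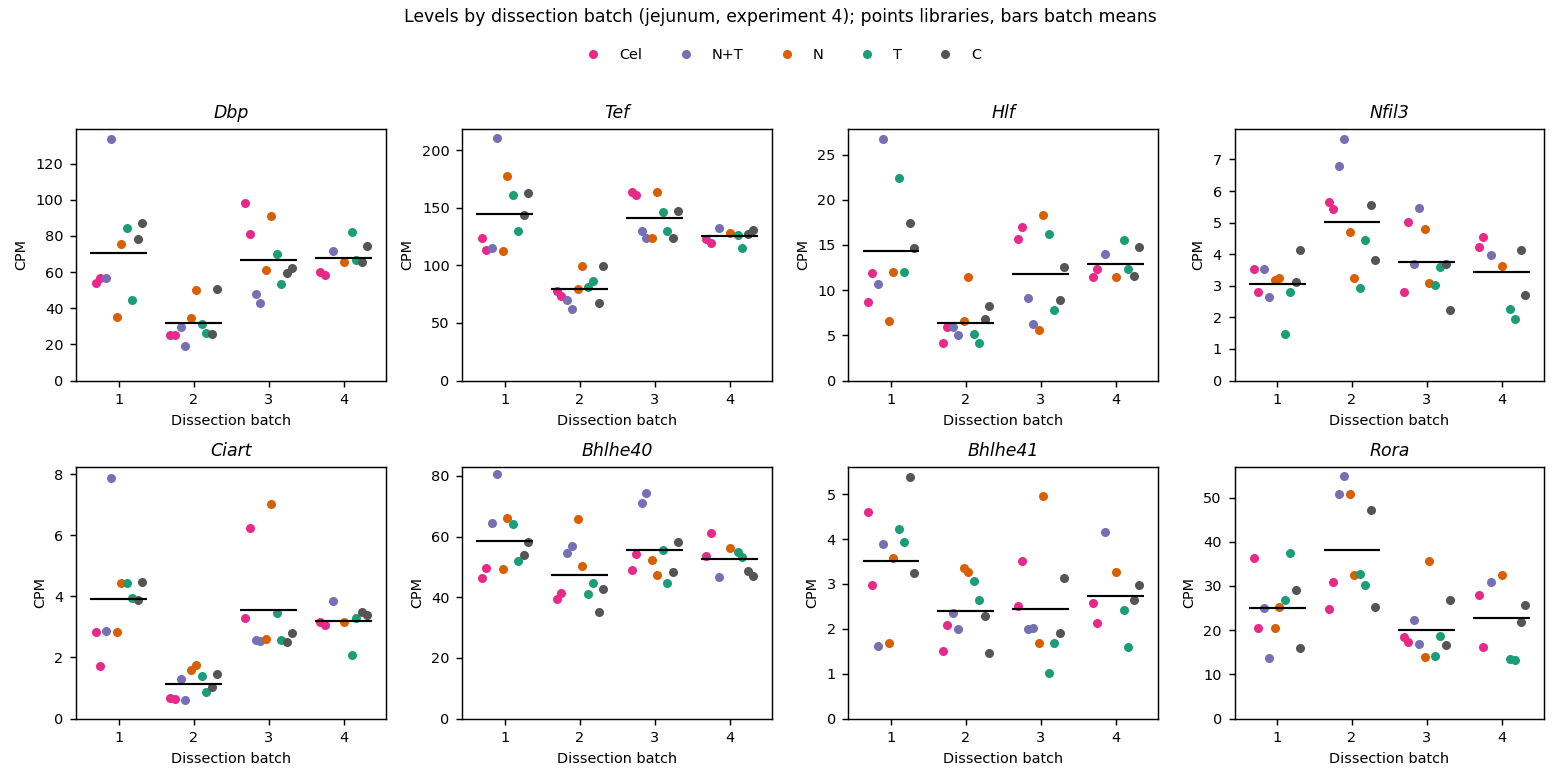
Level of each factor in CPM (vertical axis) in the 38 jejuna by dissection batch (horizontal axis), coloured by treatment. Points are libraries and bars are batch means. The mean of batch 2 is lowest for Dbp, Tef, Hlf, Ciart, Bhlhe40 and Bhlhe41 and highest for Nfil3 and Rora. For Bhlhe41 it is close to that of batch 3 (2.40 and 2.44 CPM). The 10 Tef values of batch 2, 62.1 to 99.9 CPM, lie below all others.

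Hearts of experiment 3, another cohort whose labels use the same batch names, also had lower means of the activators in batch 2. Whether a batch name marks the same days in both experiments is not stated in the labels, so the 2 tissues are not read as independent of each other. Over the 4 batches (4 hearts each, 2 per treatment) only Dbp was called (adjusted p = 0.041), so 1 of 8, against 0.702% of 15805 genes. That call held in 6 of 16 fits with 1 heart left out (adjusted p from 0.0193 to 0.103). At an unadjusted p below 0.05 there were 5 of 8 against 16.2% of all genes. DESeq2 called 5 of 8, and 6.62% of all genes. Dbp was read at 109, 112, 117 and 127 CPM in batch 1, at 72.3, 85.7, 72.1 and 75.2 CPM in batch 2, at 106, 87.0, 84.3 and 66.3 CPM in batch 3 and at 110, 96.4, 111 and 95.2 CPM in batch 4. Batch 2 lay below batches 1 and 4 throughout, and batch 3 overlapped batches 2 and 4 and lay below batch 1.

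Between batches 2 and 1, 3 of 8 were called, against 0.671% of all genes. Dbp fell by 0.61 (SE 0.11, adjusted p = 0.022), Tef by 0.48 (SE 0.09, adjusted p = 0.030) and Ciart by 0.75 (SE 0.16, adjusted p = 0.0498) on the log2 scale. Hlf differed by -0.49 (SE 0.11, adjusted p = 0.059) and Nfil3 by 0.22 (SE 0.12, adjusted p = 0.43). Between batches 3 and 1, and 4 and 1, 0 of 8 were called, against 7 and 0 of 15805 genes. Tef averaged 217 ± 7.86, 155 ± 15.2, 192 ± 27.4 and 191 ± 19.7 CPM in batches 1 to 4 and Ciart 11.1 ± 1.39, 6.60 ± 0.622, 9.51 ± 3.04 and 10.6 ± 2.26 CPM (SD, n = 4 each).

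Of 14 core clock genes, 6 were called between batches 2 and 1 in these hearts, against 0.671% of all genes. Arntl was higher by 1.42, while Per2 (-0.92), Per3 (-0.71), Cry1 (-0.52), Per1 (-0.46) and Cry2 (-0.35) were lower. With batch 2 left out, 0 of 8 factors were called over the other 3 batches, against 0.0826% of all genes. In batch 2 the 5 erythroid markers summed to 4091 to 6890 CPM and the 4 adipocyte markers to 83.5 to 222 CPM, and in the other batches to no more than 3562 and 109 CPM. The part of these markers was not tested.

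**Figure D4:**
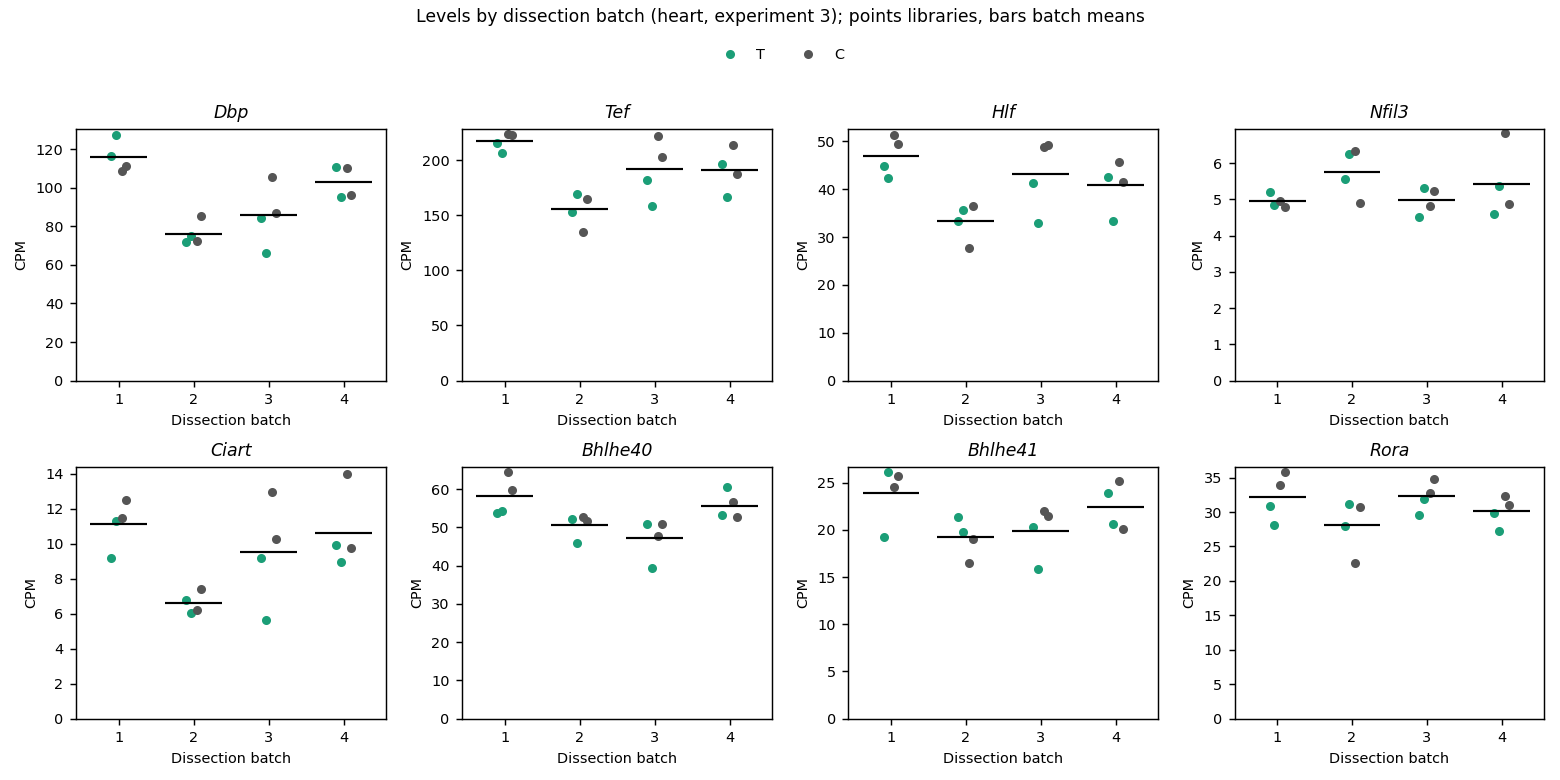
Level of each factor in CPM (vertical axis) in the 16 hearts of experiment 3 by dissection batch (horizontal axis), coloured by treatment. Points are libraries and bars are batch means. Dbp lies between 72.1 and 85.7 CPM in batch 2 and between 109 and 127 CPM in batch 1.

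Control hearts of females were also compared over experiments. In edgeR 7 of 8 differed over experiments 1, 2 and 3 (n = 5, 8 and 8), all but Nfil3 (adjusted p = 0.13), against 71.2% of all genes, and 7 of 8 had an unadjusted p below 0.05 against 73.6%. The count is near the share over all genes. Tef averaged 175 ± 25.6, 290.3 ± 22.4 and 197 ± 32.3 CPM in experiments 1, 2 and 3. Dbp averaged 55.0 ± 20.1, 92.0 ± 9.53 and 97.2 ± 14.4 CPM, Ciart 9.73 ± 2.21, 15.4 ± 2.64 and 10.6 ± 2.72 CPM, and Rora 46.0 ± 7.23, 36.9 ± 1.53 and 31.8 ± 4.11 CPM. Cohort, injection and sequencing cannot be told apart here.

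Animals of one group and batch still differed, and the factors were compared over these residuals. Correlations were computed on log2 CPM with group and, where labelled, dissection batch removed, for 28 pairs in each experiment, with permutations within groups and p adjusted over the 28 pairs. The permutations did not stay within dissection batches, so permutation p in experiments 3 and 4, here and below, can be too small. In the jejunum (38 libraries) 13 of 28 pairs passed, 10 positive and 3 negative. In hearts 0 of 28 passed in experiment 1 (20 libraries), 6 in experiment 2 (23 libraries) and 12 in experiment 3 (16 libraries), all positive. With 1 library left out these counts ran from 0 to 2, from 0 to 7 and from 4 to 12, and Spearman's rho gave 4 in experiment 3. The share of other gene pairs that would pass was not computed, so nothing particular to these factors is read from the counts.

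The PAR bZIP activators correlated with each other in the jejunum. Tef and Hlf gave r = 0.73 (rho 0.66, adjusted permutation p = 4.67e-05, r = 0.63 without 2). Dbp and Tef gave r = 0.87 (Spearman rho 0.79, adjusted permutation p = 4.67e-05, r = 0.79 without the 2 libraries farthest from the median), and Dbp and Hlf r = 0.83 (rho 0.81, adjusted permutation p = 4.67e-05, r = 0.77 without 2). The unadjusted permutation p of all 3 pairs, 1e-05, is the smallest the permutations can give. In hearts of experiment 3 Tef and Hlf gave r = 0.95 (rho 0.90, adjusted permutation p = 1.4e-04, r = 0.89 without 2), again at the smallest p possible. Dbp gave r = 0.73 with Tef and 0.61 with Hlf there (adjusted permutation p = 0.0118 and 0.0441, r = 0.56 and 0.44 without 2). In experiment 1 Dbp and Tef gave r = 0.65 (rho 0.75), which did not pass (adjusted permutation p = 0.075). Nor did Tef and Hlf (r = 0.55) or Dbp and Hlf (r = 0.10) in that experiment (adjusted permutation p = 0.185 and 0.797). In experiment 2 r was 0.27 for Dbp and Tef, 0.40 for Dbp and Hlf and 0.46 for Tef and Hlf. None of these passed (adjusted permutation p = 0.345, 0.194 and 0.147).

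Ciart moved with Dbp: r was 0.76 in experiment 2 (rho 0.66, adjusted permutation p = 0.0078, r = 0.61 without 2), 0.83 in experiment 3 (rho 0.76, adjusted permutation p = 0.0055, r = 0.63 without 2) and 0.72 in the jejunum (rho 0.73, adjusted permutation p = 4.67e-05, r = 0.63 without 2). In experiment 1 Ciart and Dbp gave r = 0.37 (rho 0.40), which did not pass (adjusted permutation p = 0.387). The pairs that passed in experiments 2, 3 and 4 alike were 4, namely Dbp with Ciart, Tef with Ciart, Ciart with Bhlhe41 and Hlf with Bhlhe41. By Spearman's rho Tef with Ciart (rho 0.64, adjusted permutation p = 0.057) and Hlf with Bhlhe41 (rho 0.59, adjusted permutation p = 0.090) did not pass in experiment 3, where r of the second was 0.70, and 0.45 without the 2 farthest libraries. Ciart and Bhlhe41, which encode E-box repressors of different families, gave r = 0.58 (rho 0.61, adjusted permutation p = 0.039, r = 0.53 without 2), 0.86 (rho 0.88, adjusted permutation p = 1.4e-04, r = 0.86 without 2) and 0.50 (rho 0.53, adjusted permutation p = 0.0071, r = 0.47 without 2) in experiments 2, 3 and 4. In experiment 1 they gave r = 0.04 (rho 0.02), which did not pass (adjusted permutation p = 0.881).

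Nfil3 ran against the activators in the jejunum. With Hlf it gave r = -0.54 (rho -0.51, adjusted permutation p = 0.0020, r = -0.44 without 2), with Dbp r = -0.51 (rho -0.45, adjusted permutation p = 0.0040, r = -0.50 without 2) and with Tef r = -0.41 (rho -0.37, adjusted permutation p = 0.027, r = -0.35 without 2). In hearts r of Nfil3 was -0.12, -0.30 and -0.25 with Dbp, -0.28, -0.34 and -0.19 with Hlf, and -0.16, 0.50 and -0.06 with Tef in experiments 1, 2 and 3. None of these passed, and the positive r with Tef in experiment 2 (rho 0.40) came nearest (adjusted permutation p = 0.056). Whether the tissues differ in this was not tested. Rora correlated with Bhlhe41 in the jejunum (r = 0.55, rho 0.58, adjusted permutation p = 0.0040, r = 0.48 without 2).

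**Figure D5:**
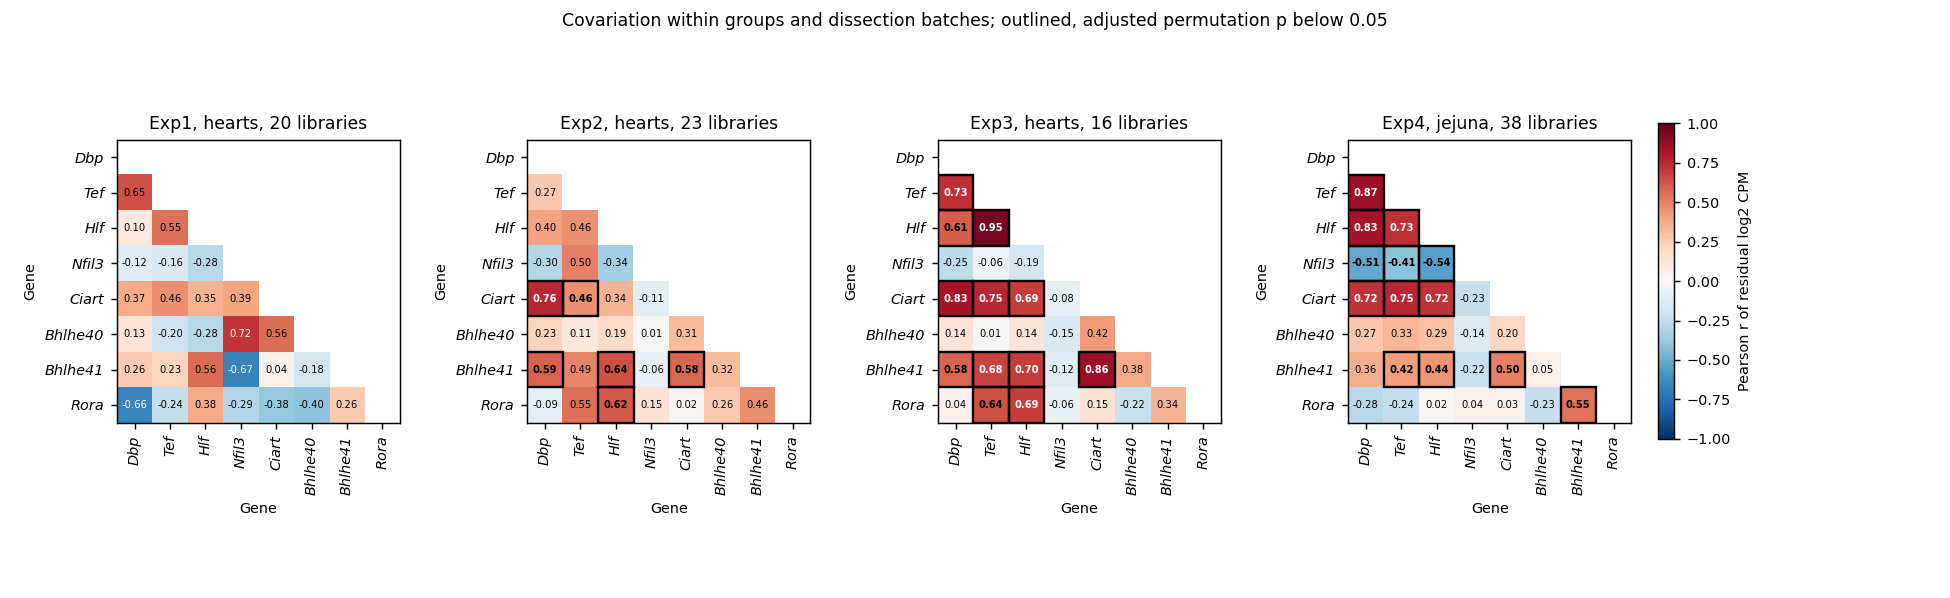
Pearson r of residual log2 CPM (colour and number) for each pair of factors (both axes) in experiments 1 to 4, after removal of group and, where labelled, dissection batch. Outlined pairs have an adjusted permutation p below 0.05. They number 0, 6, 12 and 13, and the 3 negative ones, all with Nfil3, are in the jejunum.

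Against 14 core clock genes, 112 pairs were tested in each experiment, and 22, 12, 24 and 40 passed in experiments 1 to 4. The share of pairs with other genes that would pass was not computed here either. Tef and Per3, a period gene of the loop, gave r = 0.92 in experiment 1 (rho 0.90, adjusted permutation p = 0.0014, r = 0.88 without 2), 0.75 in experiment 2 (rho 0.72, adjusted permutation p = 0.0078, r = 0.71 without 2), 0.84 in experiment 3 (rho 0.74, adjusted permutation p = 0.0035, r = 0.76 without 2) and 0.92 in the jejunum (rho 0.91, adjusted permutation p = 1.4e-04, r = 0.90 without 2). Arntl ran the other way: with Tef r was -0.84 in experiment 1 (rho -0.82, adjusted permutation p = 7.5e-04, r = -0.74 without 2) and -0.74 in the jejunum (rho -0.70, adjusted permutation p = 1.4e-04, r = -0.65 without 2). In experiment 2 it was -0.47 (rho -0.44) and did not pass (adjusted permutation p = 0.15). In experiment 3 it was -0.70 (rho -0.56, adjusted permutation p = 0.029) and fell to -0.43 without 2 libraries, so it rested in part on those. Nfil3 and Arntl, both repressed by Nr1d1 in mouse, were positively correlated in the jejunum (r = 0.51, rho 0.53, adjusted permutation p = 0.0057, r = 0.53 without 2). Values of this pair in hearts are not reported here.

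Rora, the activator at the RORE, was set beside Nr1d2, a repressor there. The pair gave r = 0.86 in experiment 1 (rho 0.85, adjusted permutation p = 5.6e-04, r = 0.85 without 2) and 0.86 in experiment 3 (rho 0.83, adjusted permutation p = 0.0020, r = 0.72 without 2), but -0.46 in the jejunum (rho -0.44, adjusted permutation p = 0.028, r = -0.41 without 2). Its value in experiment 2 is not reported here, and whether the tissues differ was not tested. Of 72 pairs of a factor with a summed marker list, 6 passed in the jejunum, 3 in experiment 1 and 0 in experiments 2 and 3. The share for other genes was not computed. Rora and the enterocyte markers gave r = -0.72 in the jejunum (rho -0.69, adjusted permutation p = 7.2e-04, r = -0.67 without 2). In experiment 1 Rora and the smooth muscle list gave r = -0.71 (rho -0.81, adjusted permutation p = 0.012, r = -0.73 without 2). In those hearts the sum of the smooth muscle list was mostly Des (median 580.01 CPM), with Acta2 next at 55.48 CPM. No smooth muscle content of hearts is read from it. Rora also passed in the jejunum with B cell markers (r = 0.52, rho 0.53, adjusted permutation p = 0.021, r = 0.45 without 2) and erythroid markers (r = 0.50, rho 0.44, adjusted permutation p = 0.043, r = 0.39 without 2). Bhlhe41 passed there with the markers of adipocytes (r = 0.69, rho 0.58, adjusted permutation p = 7.2e-04, r = 0.66 without 2) and smooth muscle (r = 0.59, rho 0.41, adjusted permutation p = 0.011, r = 0.49 without 2). It also passed there with the cardiomyocyte list (r = 0.55, rho 0.51, adjusted permutation p = 0.021, r = 0.51 without 2). In jejuna the sum of that list was mostly Ryr2 (median 24.1 CPM), with Ttn at 5.29, Tnnt2 at 4.23 and Myh6 at 0 CPM. No cardiomyocytes are read from it. In experiment 1 Dbp passed with the smooth muscle list, there mostly Des (r = 0.70, rho 0.71, adjusted permutation p = 0.024, r = 0.64 without 2). Tef passed there with T and NK cell markers (r = -0.70, rho -0.64, adjusted permutation p = 0.024, r = -0.65 without 2). The part of cell makeup in these levels and in the correlated pairs was not tested.

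Genes most like a factor over libraries were listed by mean r, as a description over libraries that share depth and tissue makeup. Among 13471 genes in 59 hearts, those most like Dbp were Tcap (0.78), a protein of the sarcomere Z-disc, Kcnh2 (0.77), a cardiac potassium channel, and Slc45a4 (0.72), and the most opposed were Siah1a (-0.75), Ptp4a1 (-0.74) and Fam49b (-0.72). Among 15058 genes in 38 jejuna those most like Dbp were Tob2 (0.84), Per3 (0.83) and Ptpn21 (0.81), and the most opposed were Zfp984 (-0.85), Phax (-0.83) and Fgfbp1 (-0.82). For Nfil3 they included Cyp1a1 (0.73), a cytochrome P450 induced through the aryl hydrocarbon receptor, and Mapkapk2 (0.67) in hearts, with Opcml (-0.60), Rab40b (-0.58) and Wdr35 (-0.57) most opposed. Cyp1a1 gave r with Nfil3 of 0.65, 0.83 and 0.72 in experiments 1, 2 and 3. In jejuna those most like Nfil3 were Faim (0.67), Rad50 (0.66) and Lonrf3 (0.65), and Ncoa7, H3f3aos and Gsta2 were most opposed (-0.63 each).

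Tef was most like Per3 in both tissues (mean r 0.84 in hearts, r 0.92 in jejuna), followed by Stk35 (0.77 and 0.83), and in hearts its most opposed gene was Arntl (-0.67). Ciart was most like Usp2 (0.70), a clock-driven deubiquitinase, in hearts and like Per3 (0.77) in jejuna. Hlf was most like Klhl21 (0.82) and Klf15 (0.77), a daily-rhythmic zinc finger factor, in jejuna. Bhlhe40 had no close counterpart in hearts, where Ier3 led with 0.56. Rora was most like Mga and Tmtc3 (0.89 each) in hearts and most opposed to Tomm6 and Cox8a (-0.84 each), which encode mitochondrial proteins. In jejuna it was most like Pkd2 (0.96), Camk1 (0.95) and Il1r1 (0.95) and most opposed to Ovol1 and Mapk13 (-0.92 each).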

How the data were processed

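RNA of 59 hearts and 38 jejuna was sequenced. The authors deposited one table of estimated counts for all genes. The submitters' processing notes name Salmon 1.9.0, R 4.2.2 and the build GRCm38, with the step from transcripts to genes not given in the sources used here. Of the values 24.7% were not whole, and all 97 columns were used. The counts were rounded and fitted per experiment in R 4.3.3 with edgeR 4.0.16 (filterByExpr, minimum count 10, TMM, robust quasi-likelihood F test, Benjamini-Hochberg over all tested genes, called at an adjusted p below 0.05), with dissection batch as a term in experiments 3 and 4. DESeq2 1.42.0 and limma-voom of limma 3.58.1, other scalings, no filter on low counts, single libraries left out and a replicate block were alternatives. CPM are per 1000000 of the TMM-scaled library. Correlations used residual log2 CPM (prior count 2) and 100000 two-sided permutations within groups but not within dissection batches. Scripts were tested on simulated data. The members and lists were chosen with earlier results of these data known. By the rule for names, all 8 factors were named in every comparison, up to 4 called genes of each list or else the one of smallest p, and the 3 genes of highest and of lowest r for Dbp and Nfil3, with some of those for the others. Further genes of the lists were named after their values were seen, and some genes that the rule names are not reported here. Promoters are RefSeq's, and gene lengths those of GENCODE M21 on GRCm38, by Ensembl ID. Libraries of one group were separate animals per the labels, and no 2 columns were identical. Depth limits the low counts of Ciart, Bhlhe41 and Nfil3 in the jejunum most.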

Additional observations from a re-analysis of the deposited data

Results flagged for a closer look

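Of 112 combinations of a factor and a group, 7 held a library whose gap to its nearest neighbour, as a share of the range of its group, passed Dixon's 95% critical value, where chance flags about 1 group in 20. The libraries were 7 different ones. Each value is given without an explanation, and the cause was not tested in any of them. Hlf was read at 26.69 CPM in replicate 7 of the jejuna on naproxen plus tryptophan, above the other 6, which ran from 5.05 to 14.02 CPM. Ciart was at 6.244 CPM in replicate 6 of the celecoxib jejuna, above the other 7 at 0.643 to 3.29 CPM. Bhlhe41 was at 5.383 CPM in replicate 7 of the control jejuna, above the others at 1.46 to 3.25 CPM, and Rora at 47.11 CPM in replicate 1 of the same group, above the others at 15.9 to 29.1 CPM. Nfil3 was at 4.295 CPM in replicate 1 of the naproxen hearts of experiment 2, below the other 6 at 6.41 to 7.80 CPM. Bhlhe40 was at 74.52 CPM in replicate 1 of the female control hearts of experiment 1, above the other 4 at 57.2 to 62.1 CPM. Rora was at 22.59 CPM in replicate 6 of the control hearts of experiment 3, below the other 7 at 30.8 to 35.9 CPM.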

How the results depend on the processing

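Of 5216 values of a factor recomputed under an alternative, 5148 kept their call or lack of one (162 uncalled values changed sign), 48 lost a call, 20 gained one and 0 reversed a called direction. DESeq2 gave 1 call for control males against females (Ciart), 2 for naproxen plus tryptophan in experiment 2 and 5 for dissection batch in hearts (Dbp, Tef, Hlf, Ciart and Bhlhe40). Fitting only the 2 groups compared also gave 2 calls for naproxen plus tryptophan, Nfil3 and Bhlhe41 (adjusted p = 0.049 and 0.035). Without a filter on low counts tryptophan in experiment 3 gave 1 call (Ciart, adjusted p = 0.0029) and dissection batch in hearts 6. Without dissection batch 2, an alternative chosen after seeing the data, both batch comparisons gave 0 calls. The number of correlated pairs became 2 in experiment 1 and 4 in experiment 3 with Spearman's rho, 3 in experiment 2 with RLE scaling, and 25 in the jejunum with dissection batch not removed. The cause of these changes was not tested.

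Leaving out each library in turn gave 0 to 1 calls for naproxen plus tryptophan in experiment 2 (Nfil3, without replicate 1 of naproxen or replicate 8 of both treatments, adjusted p from 0.0393 to 0.154 over 23 fits), 0 to 2 for dissection batch in hearts (Dbp in 6 of 16 fits, Tef without replicate 8 and Ciart without replicate 2 of the tryptophan hearts), 6 to 7 for dissection batch in the jejunum (Bhlhe40 in 9 of 38 fits, and not without the filter on low counts, adjusted p = 0.18), 7 to 8 for female controls over experiments, and 0 to 0 for each of the other comparisons. Correlated pairs ran from 0 to 2 in experiment 1, from 0 to 7 in experiment 2, from 4 to 12 in experiment 3 and from 10 to 14 in the jejunum. With the replicate number as a block, 0 of 8 factors were called in each of the 15 comparisons it could be fitted for. The numbers did not pair the samples: the median correlation of same-numbered libraries was -0.04, 0.02, -0.20 and -0.0048 in experiments 1 to 4, and 2 of 20, 2 of 23, 1 of 16 and 4 of 38 libraries correlated best with their own number. Control males and females shared no replicate number.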
